A study of Mus musculus with 5 samples.

Results

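Gamma delta T cells were selected from 5 single-cell RNA libraries of mouse lung, 1 from the sham group and 1 each from 3, 7, 14 and 28 days after bleomycin injury. All mice carried the Ms4a3-CreER and R26-tdT alleles, in which tamoxifen switches on the red reporter in cells that express Ms4a3, a gene of monocyte precursors. The sham group received PBS in place of bleomycin, an agent that injures the lung epithelium and leads to transient fibrosis, and both were given into the trachea of adult animals on a mixed C57BL6/129 background. The labels name the tissue as lung and the cell type as immune cells, and no cell sort is given for these libraries. The number of animals behind each library is not given in the sources used here, so each time point is a single sample and no test between time points was possible.

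A barcode was counted as a gamma delta T cell when it held 300 to 8000 genes, 800 to 60000 unique molecular identifiers (UMIs, each a captured transcript) and under 15% mitochondrial UMIs, at least 2 UMIs of Cd3d, Cd3e and Cd3g together, at least 1 UMI of Trdc, no UMI of Cd4, Cd8b1, Foxp3, Cd79a or Car4, and at most 1 UMI of Cd68 and Mrc1 together. The rule found 1006 cells among 44772 barcodes within the limits and 52800 barcodes in all. These genes chose the cells, so their levels are given as a description with no test. Trdc, the constant region of the delta chain, lies at chr14:54142851-54148868 (GRCm38) on the plus strand.

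Gamma delta T cells carry an antigen receptor made of a gamma and a delta chain in place of the alpha and beta chains of CD4 and CD8 T cells. Some leave the thymus already committed to make interleukin 17A, settle in lung, skin and other barrier tissues, and release the cytokine within hours of interleukin 1 and interleukin 23 without a need for antigen. In mouse tissues this type 17 programme rests on the transcription factors Sox13, Maf and Zbtb16, and many of the cells use an invariant receptor built from Tcrg-V6 and Trdv4. Interleukin 17A acts mainly on epithelial and stromal cells, which in turn recruit neutrophils.

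The libraries held 11386 barcodes with 131210167 UMIs in sham, 8971 with 89769386 at day 3, 10000 with 151234640 at day 7, 9755 with 144984156 at day 14 and 12688 with 167506186 at day 28. The day 7 library stood apart, because its lowest barcode held 4624 UMIs while the lowest barcodes of the other libraries held 500 to 502. Shallow cells were therefore missing at day 7, and the share of gamma delta T cells is given below both as counted and with 4624 UMIs as the floor in every library. Between libraries, 313 barcodes were shared, 22 to 41 for each pair. The gamma delta T cells of the sham, day 3, day 7, day 14 and day 28 libraries had a median of 4726, 7822, 6202, 4763 and 3532 UMIs, and their UMIs summed to 106177, 532049, 854120, 1817420 and 1676325. The sham sum was the lowest, so sham levels carried the widest counting error.

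Gamma delta T cells were scarce in sham and numerous late after injury. They numbered 22 in sham, 57 on day 3, 97 on day 7, 370 on day 14 and 460 on day 28. As a share of all barcodes within the limits they made up 0.238% in sham (exact 95% binomial interval 0.149 to 0.360), 0.712% on day 3 (0.540 to 0.922), 1.02% on day 7 (0.829 to 1.25), 4.77% on day 14 (4.31 to 5.27) and 4.48% on day 28 (4.08 to 4.89). The intervals cover counting error within a library only. Without the cells that held Ncr1 or Klrb1c, described below, the day 3 share was 0.387%. The late libraries lay above the first 3 in the share as counted. With the floor of 4624 UMIs in every library the shares were 0.188%, 0.818%, 1.02%, 3.61% and 0.966% in the same order, so the day 14 share stayed above the others while the day 28 share lay beside those of days 3 and 7. At day 28, 460 cells had a median of 3532 UMIs, and most of them lay under this floor.

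Among T cells, defined by the same limits on CD3, Cd79a, Car4, Cd68 and Mrc1, gamma delta T cells were 5.33% of 413 cells in sham (3.37 to 7.95), 5.48% of 1040 at day 3 (4.18 to 7.04) and 9.61% of 1009 at day 7 (7.87 to 11.6). The share was 28.0% of 1322 T cells at day 14 (25.6 to 30.5) and 32.9% of 1397 at day 28 (30.5 to 35.5). CD8 T cells, with a Cd8b1 UMI and no Trdc, Cd4 or Foxp3, took 30.0%, 51.9%, 37.2%, 26.9% and 15.7% of T cells in the 5 libraries. Conventional CD4 T cells, with a Cd4 UMI and no Trdc, Cd8b1 or Foxp3, took 18.2%, 12.1%, 11.3%, 13.8% and 16.5%. Gamma delta T cells numbered 370 against 355 gated CD8 T cells at day 14 and 460 against 220 at day 28. With the floor of 4624 UMIs, gamma delta T cells were 5.51%, 5.91%, 9.61%, 29.3% and 17.1% of T cells, and CD8 T cells 43.2%, 57.2%, 37.2%, 29.5% and 33.3%. The order at day 28 then turned, with 72 gamma delta against 140 CD8 T cells, and at day 14 the counts were 202 and 203.

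**Figure D1:**
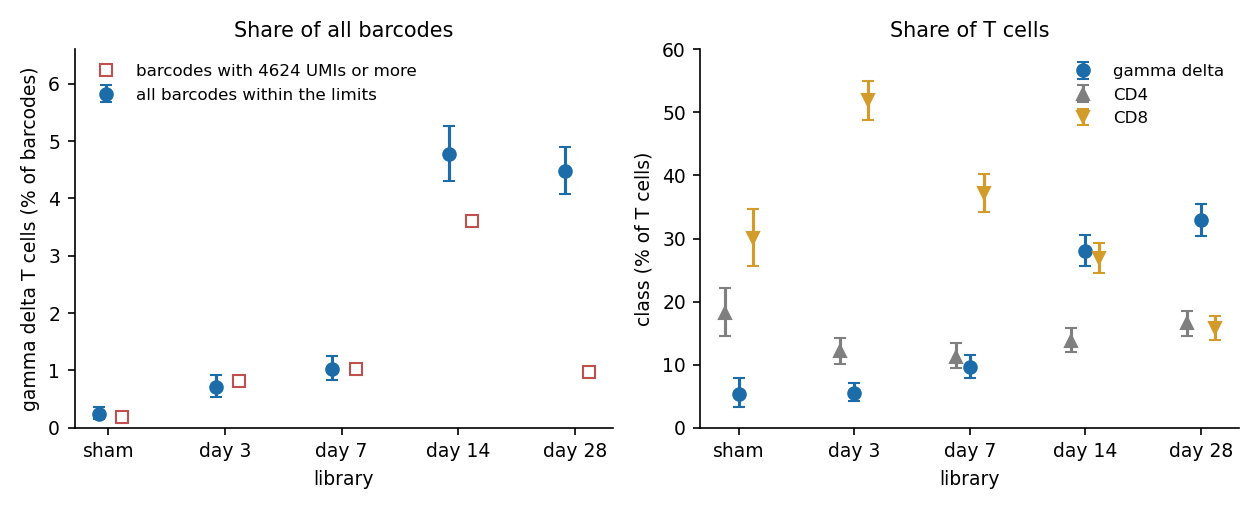
Left, gamma delta T cells as a percentage of all barcodes within the limits in each library, as counted (circles) and with a floor of 4624 UMIs in every library (squares); right, gamma delta, CD4 and CD8 T cells as a percentage of T cells as counted. Bars are exact 95% binomial intervals for counting error; as counted, gamma delta T cells reach 4.77% at day 14 and 4.48% at day 28, and with the floor 3.61% and 0.966%.

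The label held for most cells but not equally in every library. Tcrg-C1, a constant region of the gamma chain (chr13:19214103-19217024), was found in 50%, 57.9%, 87.6%, 92.4% and 87.8% of the cells from sham to day 28. Tcrg-C1 shares near-identical sequence with Tcrg-C2 and Tcrg-C3, so the split of reads between them is uncertain. Trac, the constant region of the alpha chain, remained in 20.0% to 31.8% of the cells, at 61.1 to 113 CPM, the UMIs of a gene per 1000000 UMIs of the class in a library, or 144 CPM at day 3 without the cells with NK transcripts described below. The alpha locus encloses Trdc in the genome. Cells just inside the threshold on Trdc were mixed: of 88 cells with a single Trdc UMI, 58.0% held Tcrg-C1 and 34.1% held Cd163l1, against 92.0% and 80.2% of 847 cells with at least 3. Of 1286 cells just outside, with the rest of the gate but no Trdc UMI, 9.95% held Tcrg-C1, 1.24% Cd163l1 and 63.2% Trac.

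Transcripts of natural killer (NK) cells marked a subset of the gated cells in the early libraries. Ncr1, which encodes the receptor NKp46, or Klrb1c, which encodes NK1.1, was found in 5 of 22 cells in sham, 26 of 57 at day 3, 5 of 97 at day 7, 5 of 370 at day 14 and 3 of 460 at day 28, or 22.7%, 45.6%, 5.15%, 1.35% and 0.652%. Trdc itself had a UMI in 44.0%, 40.7%, 9.68%, 22.9% and 18.5% of cells of an NK gate that required Ncr1 and Klrb1c and no CD3 UMI, at 103, 90.5, 10.3, 47.2 and 52.8 CPM. In B cells the share with Trdc was between 0.482% and 1.06%. The 5 marked cells in sham held no Tcrg-C1, Tcrg-C4, Cd163l1 or Il17a UMI, and their summed transcripts held 10778 CPM of the chemokine Ccl5 and 9914 CPM of granzyme A (Gzma). Of the 26 marked cells at day 3, 30.8% held Tcrg-C1 and 34.6% held Tcrg-C4, and 1 held Il17a. Without cells holding Ncr1 or Klrb1c, sham kept 17 cells and day 3 kept 31. Where a gene's level in sham or day 3 is printed below and moved by over 1.5 times when these NK-marked cells were left out, both values are given, apart from genes with a single UMI there.

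Most gamma delta T cells carried Cd163l1 from day 7 on. This scavenger receptor gene, also called Scart1 and known from type 17 gamma delta T cells that use Tcrg-V6, lies at chr7:140218267-140231145. Cd163l1 was present in 4 of 22 cells in sham (18.2%), 20 of 57 at day 3 (35.1%), 73 of 97 at day 7 (75.3%), 294 of 370 at day 14 (79.5%) and 353 of 460 at day 28 (76.7%), and its level was 311, 366, 414, 825 and 675 CPM, or 745 CPM at day 3 without NK-marked cells. In B cells at most 0.333% and in macrophages at most 1.29% held a UMI. After each cell was thinned to 2000 UMIs, the shares were 18.2%, 29.8%, 51.6%, 67.1% and 65.9%. With cells holding Ncr1 or Klrb1c left out they were 23.5%, 61.3%, 78.3%, 79.5% and 76.8%, which raised the day 3 share most, though it still lay below the later ones.

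Among the listed variable regions of the receptor that were analysed, Trdv4 and Tcrg-V6 had the highest levels in every library. The listed Tcrg-V1 and Tcrg-V2 were not analysed under these symbols. Trgv2, described below, lay above Tcrg-V6 from day 3 on over all gated cells. Trdv4 (chr14:54074905-54075515) was found in 3 cells in sham, 15 on day 3, 50 on day 7, 241 on day 14 and 273 on day 28, at 56.5, 60.1, 143, 362 and 447 CPM. Tcrg-V6 (chr13:19190356-19190929) was found in 1, 6, 28, 93 and 97 cells, at 18.8, 16.9, 38.6, 71.0 and 87.7 CPM. Either chain was present in 13.6%, 29.8%, 55.7%, 68.6% and 63.5% of the cells, 620 of 1006 in all. Variable regions give few UMIs in this assay, which reads the 3′ end of transcripts, and at 2000 UMIs a cell Trdv4 was seen in 9.09%, 8.77%, 24.7%, 44.4% and 48.6%. Without NK-marked cells, and as counted, Trdv4 was in 17.6%, 45.2%, 54.3%, 65.5% and 59.7% of the cells at 73.3, 124, 151, 364 and 452 CPM, and Tcrg-V6 was at 32.9 CPM at day 3. For Trdv4 the gap between days 3 and 7 was thus smaller without these cells, and days 14 and 28 had the highest shares on each count. The share with Tcrg-V6 was instead highest at day 7 without these cells, at 30.4%, against 25.2% at day 14 and 21.2% at day 28.

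Trgv2 was the other variable region found in many cells, and Tcrg-V4 was rare. Tcrg-V4, used by another type 17 population of mouse lung, skin and lymph node, was found in 37 of 1006 cells (3.68%), at 4.68 to 11.3 CPM. Delta variable regions other than Trdv4 were found in 15 cells (1.49%), 7 of which were from day 3. Trgv2, which was looked at after its values were seen, was at 9.42, 18.8, 58.5, 94.6 and 134 CPM in 263 cells, above the level of Tcrg-V6 from day 3 on, and 142 of these cells also held Tcrg-V6 or Trdv4. Without NK-marked cells its day 3 level was 12.4 CPM, below that of Tcrg-V6. Among the constant regions, Tcrg-C4 was at 189.8 to 236 CPM and Tcrg-C2 at 162 to 223 CPM in every library, and Tcrg-C2 at 288 CPM at day 3 without NK-marked cells.

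The 609 cells with Tcrg-V6 or Trdv4 and no Tcrg-V4 had a common profile, in that 94.9% held Cd163l1, 97.2% Tcrg-C1, 82.3% the kinase gene Blk and 66.0% Il17a. Of 26 cells with Tcrg-V4 alone, 15.4% held Cd163l1 and 42.3% Il17a. Of 360 cells with none of these chains, 41.9% held Cd163l1, 33.9% Il17a and 26.1% Ccl5. These shares are given without a test, since the cells of a group come from the same few libraries. The related gene 5830411N06Rik (Scart2, chr7:140247284-140300736), known from type 17 cells with Tcrg-V4, followed another course, at 141, 16.9, 14.1, 9.35 and 5.96 CPM from sham to day 28, or 37.0 CPM at day 3 without NK-marked cells. It was found in 38 cells, 7 of the 22 in sham, and 9 of the 38 also held Cd163l1, which is 23.7% of the 38 and 1.21% of the 744 cells with Cd163l1.

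**Figure D2:**
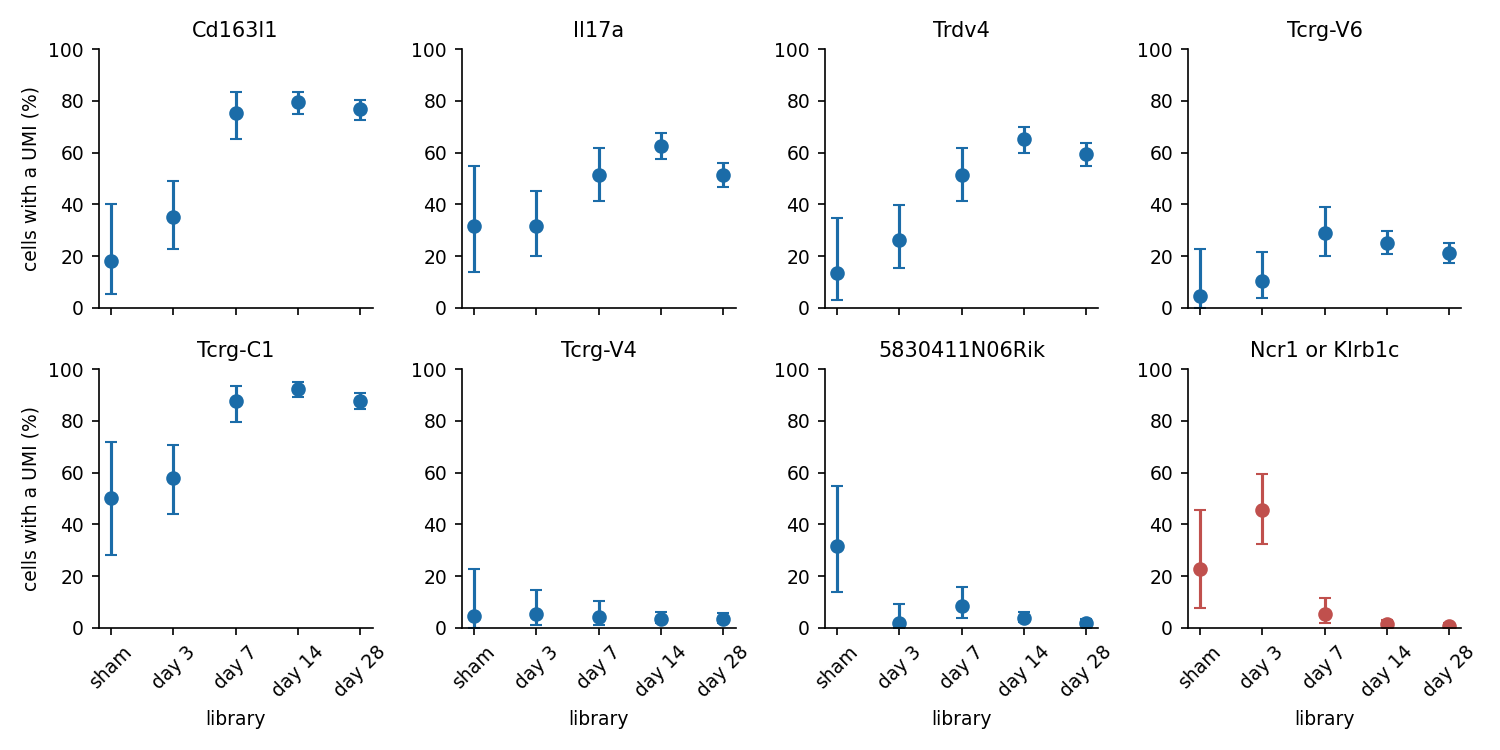
Percentage of gamma delta T cells with at least 1 UMI of Cd163l1, Il17a, Trdv4, Tcrg-V6, Tcrg-C1, Tcrg-V4, 5830411N06Rik, and Ncr1 or Klrb1c, 1 panel each, by library. Bars are exact 95% binomial intervals; Cd163l1 goes from 18.2% in sham to 79.5% at day 14, while Ncr1 or Klrb1c is highest at day 3 with 45.6%.

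Il17a (chr1:20730905-20734496) was present in every library and in over 50% of the cells from day 7 on. It was found in 7 of 22 cells in sham (31.8%, 13.9 to 54.9), 18 of 57 at day 3 (31.6%, 19.9 to 45.2), 50 of 97 at day 7 (51.5%, 41.2 to 61.8), 232 of 370 at day 14 (62.7%, 57.6 to 67.7) and 236 of 460 at day 28 (51.3%, 46.6 to 56.0). The intervals cover the counting of cells within 1 library and do not test a difference between time points. At 2000 UMIs a cell the shares were 22.7%, 24.6%, 35.1%, 47.2% and 44.2%. B cells held an Il17a UMI in at most 0.333% and macrophages in at most 0.832% of cells, at median depths of 3822 to 8998 and 16236 to 24783 UMIs. Without the NK-marked cells the shares were 41.2%, 54.8%, 54.4%, 62.7% and 51.6%, which brought day 3 beside days 7 and 28.

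The summed Il17a level was 480 CPM in sham (exact 95% Poisson interval 358 to 632), 485 on day 3 (427 to 548), 747 on day 7 (690 to 807), 845 on day 14 (803 to 888) and 678 on day 28 (639 to 718). Without cells holding Ncr1 or Klrb1c the levels were 623, 943, 788, 855 and 685 CPM, and day 3 was then the highest. CD4 T cells held 47.9, 94.5, 6.93, 39.9 and 53.5 CPM and CD8 T cells 7.50, 0.186, 0.329, 11.8 and 4.02 CPM. NK cells and group 2 innate lymphoid cells held no Il17a UMI in any library, with 31 to 273 NK cells and 12 to 20 innate lymphoid cells per library.

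Summed over the cells with Il17a, its level was 1459, 1691, 1289, 1308 and 1263 CPM from sham to day 28. The median such cell held 10, 9, 4.5, 3 and 3 Il17a UMIs at median depths of 5315, 7373.5, 6709.5, 4887 and 3618.5 UMIs, and the highest cell held 14, 71, 99, 50 and 69. The top 10% of cells held 51.0%, 73.6%, 70.7%, 55.2% and 55.5% of the Il17a UMIs. At day 3 all 18 cells with Il17a also held Cd163l1, and the 37 cells without Cd163l1 held none. Across libraries 816 of 1006 cells (81.1%) held Cd163l1 or Il17a and 471 (46.8%) held both, the latter 54.6% of cells at day 14 and 44.1% at day 28.

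**Figure D3:**
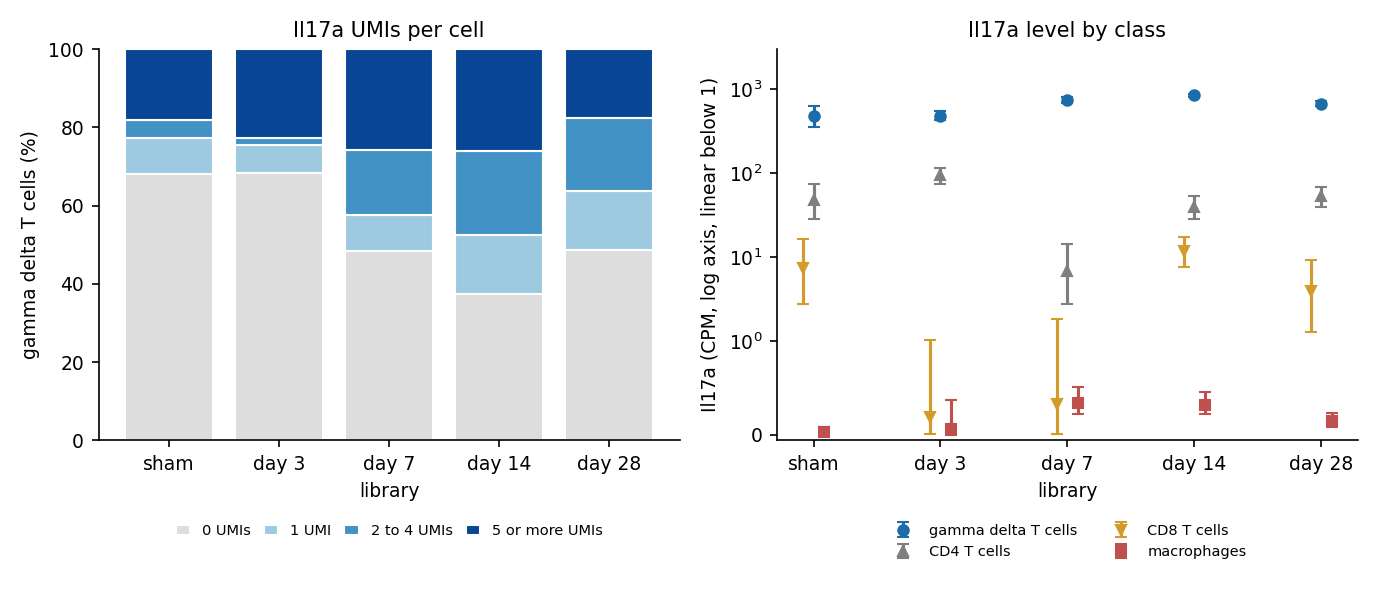
Left, percentage of gamma delta T cells with 0, 1, 2 to 4 and 5 or more Il17a UMIs in each library; right, Il17a CPM summed over gamma delta, CD4 and CD8 T cells and macrophages on a log axis that is linear below 1, with exact 95% Poisson intervals. Gamma delta T cells lie between 480 and 845 CPM, above CD4 T cells, which reach at most 94.5 CPM.

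The promoters of 3 genes of the programme are shown because Rora encodes a nuclear receptor that binds the half-site AGGTCA. Each is the 250 bases before the gene's start from RefSeq (GRCm38.p6), 5′ to 3′ on the gene's strand, with AGGTCA or its reverse complement TGACCT in capitals. They are Il17a (chr1:20730655-20730904, plus strand), Il17f (chr1:20784271-20784520, minus strand) and Il23r (chr6:67491856-67492105, minus strand).
Il17a: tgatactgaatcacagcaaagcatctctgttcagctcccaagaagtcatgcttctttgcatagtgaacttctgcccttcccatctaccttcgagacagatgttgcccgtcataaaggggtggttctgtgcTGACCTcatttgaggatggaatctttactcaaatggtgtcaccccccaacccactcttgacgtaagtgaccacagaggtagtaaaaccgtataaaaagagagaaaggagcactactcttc
Il17f: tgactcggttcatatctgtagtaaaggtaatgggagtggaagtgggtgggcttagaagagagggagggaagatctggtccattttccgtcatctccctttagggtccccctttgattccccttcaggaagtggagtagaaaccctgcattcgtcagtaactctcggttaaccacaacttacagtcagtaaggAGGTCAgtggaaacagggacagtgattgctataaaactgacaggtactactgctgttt
Il23r: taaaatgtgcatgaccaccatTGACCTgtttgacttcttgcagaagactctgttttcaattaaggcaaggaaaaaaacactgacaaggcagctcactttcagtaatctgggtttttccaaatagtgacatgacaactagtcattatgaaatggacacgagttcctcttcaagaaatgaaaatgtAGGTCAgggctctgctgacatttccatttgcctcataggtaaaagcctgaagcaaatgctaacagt

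Il17a and Il17f each held 1 match and Il23r held 2, while the same window of Cd163l1, Sox13 and Il1r1 held none. Of 32851 promoters of this length, 4607 (14.0%) held a match on either strand. A match is a description of the letters and says nothing of binding in these cells. Il17f lies 42650 bases from Il17a on the opposite strand, yet its level was far lower, at 28.2, 0, 4.68, 14.9 and 14.9 CPM.

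Of the other cytokines of the type 17 list, 5 had the counts to be tested between classes of T cell, by the test described below. At the adjusted threshold edgeR called 0 of the 5 against CD4 T cells, 3 had an unadjusted p under 0.05 and DESeq2 called 0. With NK-marked cells left out of every class, edgeR called Lta (1.18) and Tnf (1.03 on the log2 scale) higher than in CD4 T cells. CD8 T cells did not by themselves reach the low-count filter for any of the 5, so UMIs are given in place of a test. Summed over 1006 gamma delta against 1614 CD8 T cells, Areg had 210 against 75 UMIs and Csf2 59 against 4. Il17f had 59 against 4, Lta 77 against 65 and Tnf 159 against 114. Il22 was at most 1.88 CPM and Il21 had no UMI. Tnf was at 18.8, 11.3, 78.4, 23.7 and 24.5 CPM. Areg, which encodes the epithelial growth factor amphiregulin, was at 9.42, 7.52, 96.0, 45.1 and 24.5 CPM, with 16.5 CPM at day 3 without NK-marked cells. Tnf and Areg thus had their highest level at day 7. Csf2, the gene of the growth factor GM-CSF, also peaked there with 26.9 CPM. Ifng, the type 1 cytokine, was at 18.8, 22.6, 5.85, 4.95 and 1.79 CPM, and without NK-marked cells it had no UMI in sham or at day 3.

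The classes of T cell were compared within libraries, on UMIs summed for gamma delta, CD4 and CD8 T cells in each of the 5 libraries, with edgeR's quasi-likelihood test and the library as a block. Of 8850 genes tested, 676 (7.64%) were higher and 700 (7.91%) lower in gamma delta than in CD4 T cells at a Benjamini-Hochberg adjusted p under 0.05, and 1009 (11.4%) were higher and 942 (10.6%) lower than in CD8 T cells. The median log2 fold change over all genes tested was -0.015 against CD4 and -0.019 against CD8 T cells. Both comparisons share the gamma delta sums. The filter on low counts asked for 9.73 CPM in at least 3 sums, and a gene that only the higher class brought past it had to differ in order to be tested. Where a named gene's lower class in a pair did not reach this by itself, the UMIs of both classes are given in place of a test. For part of these genes their ratio is given too, with an exact 95% counting interval. List counts that include such genes are a description.

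Receptors and surface proteins of type 17 cells were higher in gamma delta T cells than in either class. Of 11 listed genes tested, 10 were higher than in CD4 T cells, with a median log2 fold change of 2.58, and 10 were higher than in CD8 T cells, with a median of 2.71. Of these, 4 and 5 genes passed the filter through gamma delta T cells alone, among them Il1r1, Il23r and Il17re in both comparisons. Il1r1, the receptor for interleukin 1, was at 75.4, 35.7, 93.7, 202 and 168 CPM in gamma delta T cells, and at 74.1 CPM at day 3 without NK-marked cells. Its 755 UMIs stood against 17 in CD4 T cells, a ratio of 39.6 (24.6 to 68.4), and 14 in CD8 T cells, a ratio of 136 (80.6 to 250.2). Il23r, a subunit of the interleukin 23 receptor, was at 18.8, 18.8, 35.1, 59.4 and 79.9 CPM (41.2 at day 3 without NK-marked cells), and its 284 UMIs stood against 7 in CD4 T cells, a ratio of 36.2 (17.3 to 90.8). Every library had Il1r1 higher in gamma delta T cells than in either class.

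Of the chemokine receptors on this list, Ccr2 was 2.71 higher on the log2 scale than in CD4 and 2.57 higher than in CD8 T cells, and Cxcr6, a receptor of tissue T cells, 2.58 and 2.38. Ccr6, which follows the ligand Ccl20, was 1.25 higher than in CD4 T cells, a call lost without the sham or the day 14 library, and it had 319 UMIs against 17 in CD8 T cells, a ratio of 47.4 (29.1 to 82.3). Il17re, the receptor of interleukin 17C, had 453 UMIs against 35 in CD4 and 23 in CD8 T cells, ratios of 11.5 (8.18 to 16.8) and 49.7 (32.7 to 79.2). Il18r1 was 1.18 and 1.24 higher on the log2 scale. Il7r, the interleukin 7 receptor, was the exception. It was at 612, 475, 722, 2156 and 2084 CPM in gamma delta T cells (794 at day 3 without NK-marked cells), and its log2 fold changes of 0.31 and 0.53 did not pass the test (edgeR quasi-likelihood test with Benjamini-Hochberg adjustment, adjusted p = 0.33 and 0.054). With NK-marked cells left out of every class, its log2 fold changes were 0.50 and 0.73, and both passed.

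Of 12 transcription factors of the programme, 4 were higher and 1 lower than in CD4 T cells (median log2 fold change 0.54), and 8 were higher than in CD8 T cells (median 1.05). In each comparison 3 of those higher passed the filter through gamma delta T cells alone, and Sox13 and Zbtb16 were among them. Sox13, an early factor of the lineage, had 535 UMIs against 2 in CD4 T cells, a ratio of 239 (65.7 to 1975). Zbtb16, which encodes PLZF, had 409 UMIs against 17 in CD4 and 22 in CD8 T cells, ratios of 21.5 (13.2 to 37.2) and 46.9 (30.6 to 75.7). Rora was 0.91 and 2.54 higher on the log2 scale than in CD4 and CD8 T cells. Maf, at 386, 179, 378, 772 and 789 CPM (358 at day 3 without NK-marked cells), was 3.89 ± 0.24 higher than in CD8 T cells, and against CD4 T cells its log2 fold change of 0.52 did not pass (adjusted p = 0.12). With NK-marked cells left out of every class, Maf (0.77) and Id2 (0.59 on the log2 scale) were also called higher than in CD4 T cells. Batf was the factor that was lower than in CD4 T cells.

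All 8 of the other listed genes of type 17 gamma delta T cells were higher than in either class, with median log2 fold changes of 2.74 and 4.10. Blk and Kcnk1 in both comparisons, and Serpinb1a against CD8 T cells, passed the filter through gamma delta T cells alone. Blk, a kinase of the Src family best known from B cells, was at 386, 186, 179, 415 and 385 CPM, and at 342 CPM at day 3 without NK-marked cells. Its 1694 UMIs stood against 2 in CD4 T cells, a ratio of 756 (209 to 6243). B cells themselves held 106, 74.3, 40.2, 67.6 and 44.3 CPM of Blk, less than gamma delta T cells in each library. Of the 4 B cell markers, the most abundant in gamma delta T cells was Ighm up to day 14, at 75.4, 113, 42.2 and 20.4 CPM, and Igkc at day 28, at 27.4 CPM, while Ms4a1 was at most 1.88 CPM. Kcnk1, a potassium channel, had 444 UMIs against 5 in CD4 T cells, a ratio of 79.2 (33.7 to 245). Serpinb1a, a protease inhibitor, was 2.93 higher on the log2 scale than in CD4 T cells and had 1272 UMIs against 72 in CD8 T cells, a ratio of 44.6 (35.1 to 57.4). Tmem176a was 2.62 and 3.98 higher, and S100a4 1.24 and 2.28.

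**Figure D4:**
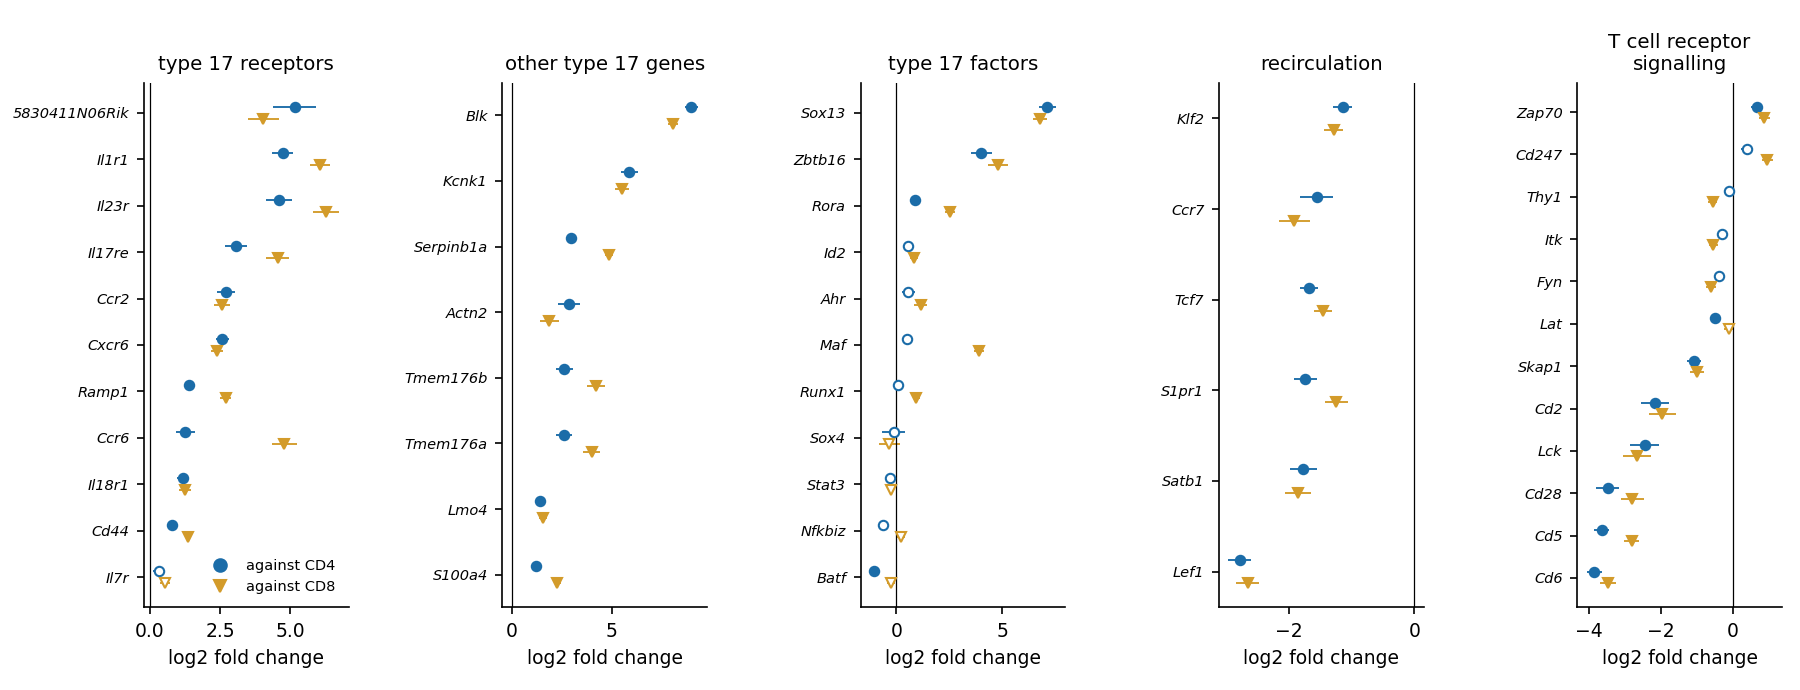
Log2 fold change of gamma delta T cells against CD4 (circles) and CD8 T cells (triangles) for genes of 5 lists, with bars for the standard error and filled symbols for an adjusted p under 0.05. Where the lower class did not reach the low-count filter by itself, the symbols are a description and no test. Il1r1, Il23r, Il17re, 5830411N06Rik, Sox13, Zbtb16, Blk and Kcnk1 are among these in both comparisons. Type 17 receptors and the other type 17 genes lie to the right of 0, and genes of recirculation to the left.

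The chain genes follow the gate, which required Trdc in gamma delta T cells and barred it from the other classes, so their differences are a description. Trdv4, which is joined to Trdc in 1 transcript, had 1566 UMIs against 2 in CD4 T cells. Tcrg-V6 had 320 UMIs against 0, at least 95.1-fold higher (against 3 UMIs over the class). Tcrg-C2 had 1011 UMIs against 41 in CD4 T cells, and Tcrg-C4 1103 against 26. Trac was 3.17 ± 0.12 lower on the log2 scale, with Trbc1 1.13 and Trbc2 1.22 lower. All 3 alpha and beta chain genes were also lower than in CD8 T cells. Trbc1 and Trbc2 are near-identical copies, so their separate values are uncertain, and Trbc1 stood at 262 to 795 CPM and Trbc2 at 570 to 848 CPM in gamma delta T cells.

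Abi3bp, a matrix-binding protein, was among the genes with the largest differences, some of which are list members. Its 435 UMIs stood against 2 in CD4 T cells, a ratio of 194 (95% counting interval 53.4 to 1607). Against 15 UMIs in CD8 T cells the ratio was 73.2 (43.9 to 132). Tns4, a tensin, had 328 UMIs against 3 in CD4 T cells, a ratio of 97.5 (33.1 to 475), and 5 in CD8 T cells, a ratio of 166 (70.2 to 513). Ltb4r1, a leukotriene B4 receptor, had 724 UMIs against 35 in CD8 T cells, a ratio of 52.2 (37.2 to 75.6), and Ly6g5b 425 against 19, a ratio of 56.5 (35.7 to 94.7). Klre1 and Xcl1, genes of NK cells, had 185 UMIs against 6 and 386 against 13 in CD4 T cells, ratios of 27.5 (12.4 to 75.9) and 26.5 (15.3 to 50.2). Most of these UMIs lay in NK-marked cells, and without them Klre1 went from 188 to 0 CPM in sham and from 235 to 8.23 CPM at day 3, and Xcl1 from 141 to 36.6 and from 626 to 37.0 CPM. All of these passed the filter through the gamma delta sums. Among the genes lowest against CD4 T cells were Tnfrsf4, which encodes the costimulatory receptor OX40 (a log2 fold change of -3.81), Slamf6 (-3.70), Fam169b (-3.79), Fam101b (-3.68) and Gm8369 (-3.60). Themis, needed for selection of alpha beta T cells in the thymus, had 22 UMIs in gamma delta against 418 in CD4 and 1261 in CD8 T cells, and the folate receptor gene Izumo1r 21 against 377 in CD4 T cells. Against CD8 T cells 5730508B09Rik was 3.48 lower on the log2 scale. Gzmk had 5 UMIs against 1303 in CD8 T cells, Dapl1 29 against 1585, Nsg2 37 against 788, and Cd8a, whose partner Cd8b1 was barred by the gate, 17 against 5544.

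Genes that let T cells recirculate through lymph nodes were lower throughout. All 7 on the list were lower than in CD4 T cells, with a median log2 fold change of -1.74, and all 7 were lower than in CD8 T cells, with a median of -1.85. S1pr1, the receptor that draws T cells into lymph and blood, was at 217, 71.4, 101, 189 and 116 CPM (128 at day 3 without NK-marked cells) and was 1.74 and 1.25 lower on the log2 scale. Ccr7, the receptor for entry into lymph nodes, was 1.56 and 1.91 lower, Klf2 1.14 and 1.29 lower, and Lef1 2.78 ± 0.18 and 2.66 lower. Klf2 was at 1234 CPM in sham and at 338 to 509 CPM in the 4 bleomycin libraries. Without the day 14 or the day 28 library, 6 of the 7 genes were still called against CD4 T cells.

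Of 4 genes of tissue residence tested, Itgae, which encodes the integrin CD103 that binds E-cadherin on epithelium, was higher than in both classes, by 3.22 ± 0.41 and 2.48 ± 0.35 on the log2 scale. It was at 84.8, 75.2, 167, 315 and 243 CPM, and at 128 CPM at day 3 without NK-marked cells. Rgs1 passed against CD8 T cells (1.08) and Cd7 against CD4 T cells (2.28). Cd7 was at 226, 419, 44.5, 38.0 and 38.2 CPM, and at 159 in sham and 70.0 at day 3 without NK-marked cells. With these cells left out of every class it was 1.26 higher than in CD4 T cells and lower than in CD8 T cells, by 1.18. Cd69 had log2 fold changes of -0.08 and -0.09 and did not pass.

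Genes of T cell receptor signalling split in direction. Of 12, 1 was higher and 7 lower than in CD4 T cells, and 2 were higher and 9 lower than in CD8 T cells. The kinase Zap70 was 0.68 and 0.88 higher. Lck, the kinase bound by the CD4 and CD8 coreceptors, was 2.44 and 2.66 lower, and it was at 179, 224, 38.6, 20.4 and 17.9 CPM, or 97.7 in sham and 139.9 at day 3 without NK-marked cells. The costimulatory receptor Cd28 was 3.47 and 2.79 lower, and Cd5 and Cd6, which dampen receptor signals, were lower than in CD4 T cells as well, Cd5 by 3.63 and Cd6 with 44 UMIs against 539. Cd2 was 2.15 and 1.96 lower. Lck, Cd2 and Cd28 had in common that sham and day 3 held the most, with and without NK-marked cells. Cd2, for instance, was at 264, 316, 49.2, 28.6 and 22.1 CPM, and at 122 in sham and 214 at day 3 without them.

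Of 11 genes of costimulation and inhibition tested, 1 was higher and 5 lower than in CD4 T cells, and 2 were higher and 4 lower than in CD8 T cells. Pdcd1, which encodes the inhibitory receptor PD-1, was higher than in CD4 T cells by 1.64 ± 0.27 and than in CD8 T cells by 1.75 ± 0.26. It was at 56.5, 231, 116, 288 and 150.3 CPM, and without NK-marked cells at 408 CPM at day 3, then the highest library. Icos was 1.04 higher than in CD8 T cells. Cd40lg, by which CD4 T cells help B cells, had 17 UMIs against 318 in CD4 T cells, and Ctla4 was 2.69 and 1.07 lower on the log2 scale. With NK-marked cells left out of every class, Ctla4 was no longer called against CD8 T cells, at a log2 fold change of -0.87. Of 8 immediate early genes, 1 (Fosb) was higher than in CD4 and 5 were higher than in CD8 T cells.

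Cytotoxic genes differed widely between libraries. The 22 listed genes of type 1 and cytotoxic cells summed to 9588 CPM in sham, 12523 on day 3, 2450 on day 7, 1433 on day 14 and 1223 on day 28. Without cells holding Ncr1 or Klrb1c the sums were 2235, 5223, 2185, 1331 and 1169 CPM. Gzma was at 2279, 1254, 3.51, 89.1 and 0.597 CPM with these cells and at 12.2, 28.8, 3.71, 80.2 and 0.603 CPM without them. Ccl5, a chemokine of memory T cells and NK cells, was at 3014, 4830, 1238, 257 and 342 CPM, and the sham and day 3 levels were 708 and 3124 CPM without them. The granzyme A of the early libraries thus sat in cells with NK transcripts, and Ccl5 did so in part. Of the 22 genes, 8 were higher and 4 lower than in CD4 T cells, but 4 were higher and 6 lower with NK-marked cells left out of every class, and 2 were higher and 6 lower without the sham and day 3 libraries. Against CD8 T cells 2 were higher and 12 lower, with a median log2 fold change of -1.44 (5 of the 12 passed the filter through CD8 T cells alone), and Nkg7, of cytotoxic granules, was 2.66 lower. With NK-marked cells left out of every class, Ccl5, Gzma, Klrc1 and Klrc2 were called lower than in CD8 T cells as well. Gzmb and Xcl1 were lower too in that setting. In gamma delta T cells they were then at 0, 148, 2.5, 19.6 and 3.6 CPM and at 36.6, 37, 7.4, 3.9 and 1.2 CPM. Most of these lay under the 9.73 CPM of the main filter, so both are a description and no test.

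The interferon response was a feature of the day 3 library. Its 9 listed genes summed to 179, 2695, 302, 233 and 180 CPM, and at day 3 to 3388 CPM without the NK-marked cells. Isg15, an interferon-induced modifier, was at 18.8, 624, 32.8, 39.1 and 31.0 CPM and was found in 43 of 57 cells at day 3. The same library held 641 CPM of Isg15 in CD4 T cells, 446 in CD8 T cells, 667 in macrophages and 233 in B cells, so the high level was not particular to gamma delta T cells. Within libraries, 2 of the 9 genes were lower than in CD4 T cells and 4 of the 9 genes were lower than in CD8 T cells. With NK-marked cells left out of every class, the calls of Zbp1 against CD4 T cells (-0.79) and Ifit3 against CD8 T cells (-0.93) were lost.

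Transcripts of the cell cycle were also highest at day 3, where the 10 listed genes summed to 1261 CPM, against 217 in sham, 713 at day 7, 191 at day 14 and 165 at day 28. Without NK-marked cells the day 3 sum was 222 CPM and the day 7 sum 651 CPM. Mki67, a marker of dividing cells, fell in the same way from 128 to 16.5 CPM at day 3, and was at 63.2 CPM at day 7 with and 50.7 CPM without these cells. At the adjusted threshold edgeR called 0 of the 10 genes against either class, 0 had an unadjusted p under 0.05, and DESeq2 called 0. With NK-marked cells left out of every class, edgeR called Mki67 (-1.36) and Stmn1 (-1.39 on the log2 scale) lower than in CD4 T cells. Birc5 (-1.67) and Ube2c (-1.65) were lower too. In gamma delta T cells of that setting they were at 0, 4.1, 49.4, 3.4 and 4.2 CPM and at 0, 4.1, 81.6, 3.4 and 4.8 CPM. Only day 7 lay above the 9.73 CPM of the main filter, so these values are a description and no test. In that setting Stmn1 was also called lower than in CD8 T cells (-1.16).

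**Figure D5:**
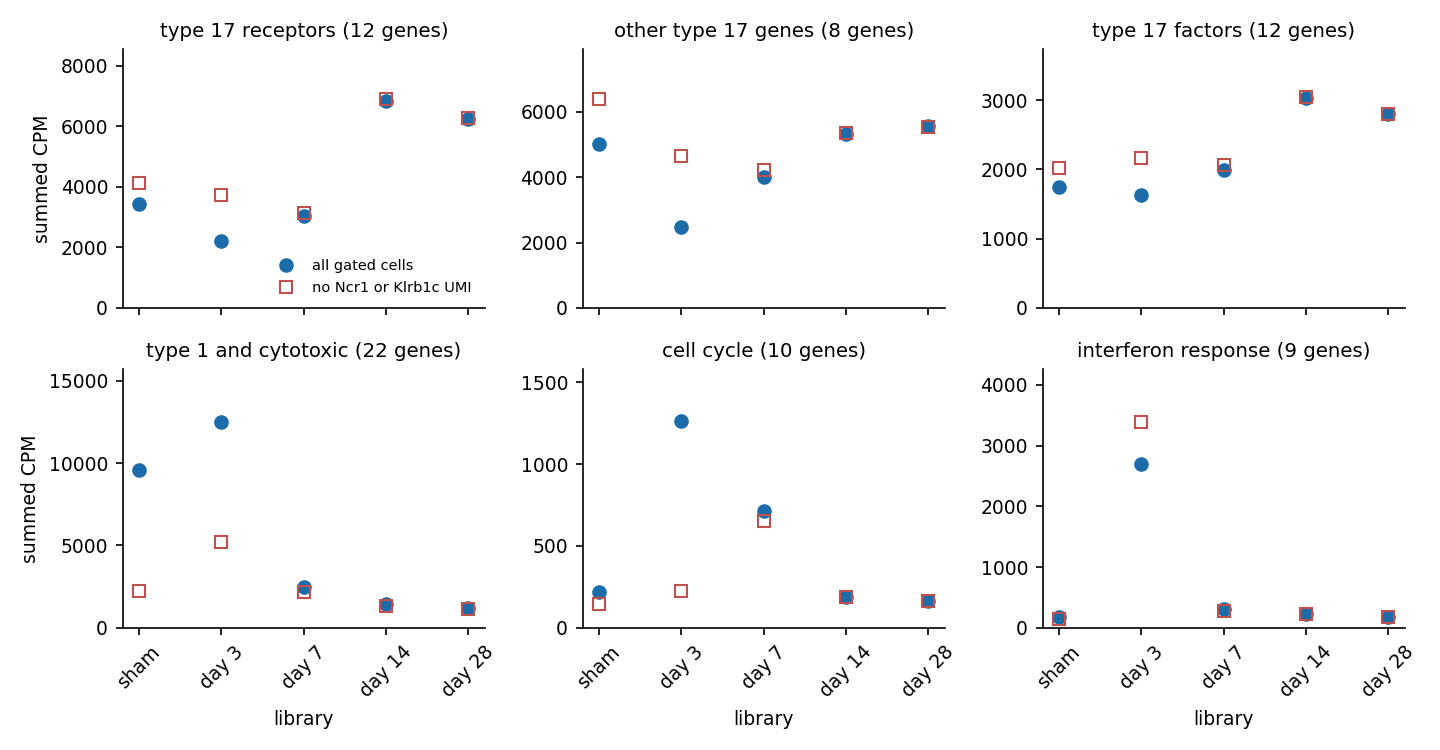
Summed CPM of 6 gene lists in gamma delta T cells by library, over all gated cells (circles) and without cells that hold Ncr1 or Klrb1c (squares). The cytotoxic and cell cycle sums at day 3 drop from 12523 to 5223 and from 1261 to 222 CPM, and the interferon sum does not drop.

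Type 17 genes were present in every library, and their receptors were highest late. The 12 type 17 receptors summed to 3428, 2216, 3027, 6856 and 6248 CPM over all cells, and to 4116, 3746, 3139, 6893 and 6280 CPM without them, so days 14 and 28 were the highest on either count. The other type 17 genes summed to 5001, 2473, 4013, 5313 and 5571 CPM over all cells and to 6400, 4660, 4208, 5353 and 5546 CPM without them. Il7r carried much of the late receptor sum.

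Cells with Cd163l1 were compared with cells without it inside the 4 bleomycin libraries; sham, with 4 such cells, was left out. Of 6031 genes tested, 24 (0.398%) were higher and 48 (0.796%) lower in cells with Cd163l1. Here the filter asked for 26.9 CPM in at least 2 sums. Pdcd1, which both sides brought past it, was 1.90 ± 0.26 higher on the log2 scale (edgeR quasi-likelihood test with Benjamini-Hochberg adjustment, adjusted p = 0.00917), at a mean of 309 against 69.5 CPM. The cells with Cd163l1 alone brought Tcrg-V6, Trdv4 and Calca past it. Tcrg-V6 had 311 UMIs with Cd163l1 against 7 without, at a mean of 76.4 against 4.67 CPM, and Trdv4 1496 against 64, at 344 against 42.4 CPM. Calca, which encodes the neuropeptide CGRP, had 367 against 12. Because a cell with more UMIs is more likely to show Cd163l1, each cell was also thinned to 2000 UMIs. The log2 fold changes of Tcrg-V6, Trdv4, Calca and Pdcd1 were then 1.29, 1.07, 1.01 and 0.66, which did not pass the threshold. Cells with Cd163l1 had medians of 7373.5, 6028, 4779 and 3575 UMIs at days 3, 7, 14 and 28, beside 7822, 6202, 4763 and 3532 over all gated cells. The gated cells include those with Cd163l1, so these medians do not set cells with it against cells without it. Thinning also moved cells between the sides, at day 7 from 73 and 24 to 50 and 47. The cause of the lost calls was not tested. The calls of higher genes were the less stable side, with 1 higher and 24 lower after thinning, 1 and 21 without the day 14 library, and 4 and 17 without the day 28 library.

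Cells without Cd163l1 held more cytotoxic transcripts, and more of Cd28 and Lck. NK-marked cells lay mostly on this side, 31 of 244 cells without Cd163l1 in the 4 libraries and 8 of 740 with it, and at day 3 25 of 26 were without it. Of 17 type 1 and cytotoxic genes tested, 8 were lower in cells with Cd163l1, and the median log2 fold change was -2.27 beside -0.0050 for all genes. All 8 passed the filter through cells without Cd163l1 alone, so the count is a description. Nkg7 had 53 UMIs with Cd163l1 against 842 without, at a mean of 17.7 against 594 CPM, Xcl1 8 against 363, and the NK receptor genes Klre1 and Klrc1 5 against 160 and 23 against 173. Of 10 genes of T cell receptor signalling, Cd247, which encodes the zeta chain, was higher (1.41 on the log2 scale) and 4 were lower. The calls of Cd247 and Ccr2 were lost after thinning and without the day 7, day 14 or day 28 library. Of the 4, Skap1 (-1.15) reached the filter on both sides, while Cd28 had 24 UMIs against 161, Lck 23 against 196 and Cd2 62 against 237. With NK-marked cells left out, 6 of 15 cytotoxic genes were lower, beside 52 of 5932 genes over all. These 6 were among the 8 that only cells without Cd163l1 brought past the main filter, so this count is a description too. Of the cytotoxic list, Xcl1 and Ccl3 no longer had the counts to be tested, nor had the NK receptor gene Klre1. Nkg7 was at -4.40, Cd28 at -4.21 and Lck at -4.21 on the log2 scale. In the main setting cells with Cd163l1 did not bring these 3 genes past the filter, so their values are a description and no test. Among 10 type 17 receptors, Ccr2 was higher with Cd163l1, by 0.89 on the log2 scale. Without NK-marked cells its log2 fold change was 1.10 and did not pass, while Cxcr6 (1.28) and Il1r1 (1.48) were then higher. The gene 5830411N06Rik had the counts to be tested in that setting but not in the main one, and was lower with Cd163l1. Over all gated cells, 0 of 20, 4 of 73, 3 of 294 and 2 of 353 cells with Cd163l1 held it at days 3, 7, 14 and 28. Cells without Cd163l1 alone brought it past the filter, so its lower level is a description and no test. For the 12 type 17 transcription factors edgeR called 0, 7 had an unadjusted p under 0.05 and DESeq2 called 0, with a median log2 fold change of 0.78. Il17a was present in 90.0%, 61.6%, 68.7% and 57.5% of cells with Cd163l1 at days 3, 7, 14 and 28, and in 0%, 20.8%, 39.5% and 30.8% of cells without it.

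RNA of other lung cells was found in the gamma delta T cells at levels that differed by library, as it was in CD4 T cells. The macrophage gene Lyz2 was at 970, 295, 509, 1770 and 2732 CPM in gamma delta and at 901, 287, 387, 1528 and 2283 CPM in CD4 T cells. The neutrophil gene S100a8 was at 47.1, 851, 3358, 817 and 295 CPM, and at 1133, 876, 513, 312 and 442 CPM in CD4 T cells. The club cell gene Scgb1a1 reached 2359 CPM at day 7, where CD4 T cells held 11612 CPM. Haemoglobin Hbb-bs was at 18.8, 3.76, 0, 4271 and 44.7 CPM, with 5013 CPM in CD4 T cells at day 14. CD8 T cells differed, with 107 CPM of Hbb-bs at day 14, and with 613 CPM of S100a8 and 12330 CPM of Scgb1a1 at day 7. B cells held 64.4 CPM of Hbb-bs at day 14. S100a8 and S100a9 were called higher in gamma delta than in CD8 T cells, and 0 of the 7 macrophage markers were. Hba-a1 was also higher, but it passed the filter through gamma delta T cells alone, so its difference is a description and no test. The 7 macrophage markers summed to 2072, 939.8, 1310, 3568 and 4775 CPM, the 3 neutrophil markers to 141 (85.5 without NK-marked cells), 2114, 7742, 1914 and 548 CPM and the 4 B cell markers to 30.8 to 145 CPM. Among markers of group 2 innate lymphoid cells, Il13 and Il5 were at 0 and Il1rl1 was at most 4.68 CPM. The part of such RNA in the comparisons between libraries was not tested.

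Ratios to sham are given with no test, for the 5 largest each way among genes with at least 50 UMIs, and sham itself rests on 22 cells. At day 3 the largest ratios were those of interferon-induced genes, Isg15, Ifit1, Zbp1, Ifitm3 and Ms4a4c. Isg15 was 33.1-fold higher, a log2 ratio of 5.05 with a 95% counting interval of 3.19 to 8.10. At day 7 they were those of the antigen presentation genes Cd74, H2-Eb1 and H2-Aa, with S100a8 and Clu. Cd74 went from 28.2 CPM in sham to 3873 CPM at day 7, while CD4 T cells held 30.3 and 3137 CPM. At day 14 they were those of the haemoglobin genes Hbb-bs, Hba-a1, Hba-a2 and Hbb-bt and of Apoe, and at day 28 those of Apoe, Ctsl, H2-Eb1, Cd74 and AY036118. Apoe, a gene abundant in macrophages, went from 9.42 CPM in sham, a single UMI that was absent without NK-marked cells, to 742 CPM at day 14 and 830 CPM at day 28, a log2 ratio of 6.46 with a counting interval of 3.98 to 11.77 at day 28. At day 28, 4 cells with over 3 times the median UMIs held 65.1% of the Cd74 UMIs, and Cd74 was at 430.1 CPM with and 157 CPM without them. The source of these transcripts was not tested.

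The largest ratios below sham at day 3 were those of Chil3, Acsbg1, Scgb1a1, Ccl6 and Klra9, and Chil3, a gene of alveolar macrophages, went from 819 to 47.0 CPM. At day 7 they were Gzma, Nkg7, Gm8730, Acsbg1 and Chil3, at day 14 Rpl29, Gzma, Ctla2a, Nkg7 and Gzmb, and at day 28 Gzma, Nkg7, Gm8730, Cd2 and Ms4a4b. Several of these ratios shrank or turned without the 5 NK-marked cells of sham. Gzma was then at 12.2 CPM in sham and 80.2 CPM at day 14, so its direction at day 14 turned, and Nkg7 was at 318 CPM in sham, where it had been at 1121 CPM, against 53.1, 57.2 and 22.9 CPM at days 7, 14 and 28. Gzmb and Klra9 had no UMI in sham without these cells, and Ctla2a and Ms4a4b were at 208 and 549.7 CPM there, against 433 and 1008 CPM with them. Rpl29, a ribosomal protein gene with near-identical copies, went from 2147 CPM in sham to 12.1 CPM at day 14.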

How the data were processed

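The authors sequenced 10x Genomics 3′ libraries and made the matrices with Cell Ranger (6.0.0 in the submitters' notes; the matrix header names software version 3.1.0) on mm10 with an added RFP sequence. The deposited values are raw UMI counts for each gene and barcode, and these counts were used as deposited. The authors' doublet removal is not part of these matrices, and no doublets were removed here. The cells and gene lists were chosen with earlier results of these data known. UMIs were summed per class and library and given as CPM with exact intervals at 95%, which cover counting error only. Class tests used edgeR 4.0.16 (quasi-likelihood, TMM, filterByExpr, library block; R 4.3.3) with Benjamini-Hochberg adjustment over all genes tested and a threshold of 0.05. DESeq2 1.42.0 was an alternative, as was removal of the barcodes with the highest Scrublet scores (scanpy 1.11.5). Libraries needed 10 cells of each class. Background gates were Cd79a and Ms4a1 for B cells and Cd68 and Mrc1 for macrophages, each without CD3. Thinning drew 2000 UMIs per cell and left out 14 cells at day 14 and 55 at day 28. Genes named for the size of their difference were the 10 largest each way, some of them list members. They had an adjusted p under 0.05, the same direction in every library and at least 50 CPM on average in a class. Other list members were named at 100 CPM in a library, past the threshold or as defining genes. Ratios to sham named the 5 largest each way with at least 50 UMIs. Lungs were taken after death at each time, so the libraries come from different animals, whose number per library is not given in the sources used here, and p-values measure the spread between libraries. The scripts were tested on simulated counts. Some listed genes are not reported here.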

Additional observations from a re-analysis of the deposited data

Results flagged for a closer look

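The reporter transcript RFP, which lies outside the comparisons, was at 132, 126, 227, 303 and 158 CPM in the gamma delta T cells of the sham, day 3, day 7, day 14 and day 28 libraries, and the day 14 value was taken up because it lay above the sham level. RFP was found in 45.5%, 42.1%, 62.9%, 70.5% and 40.6% of the cells. Ms4a3, whose promoter drives the Cre, had no UMI in them. CD4 T cells held 164, 115, 134, 248 and 110 CPM, B cells 108, 123, 203, 526 and 154 CPM, and macrophages 124, 351, 251, 1071 and 401 CPM of RFP, with day 14 the highest in each of these classes. The part of macrophage RNA in the RFP level of gamma delta T cells was not tested.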

How the results depend on the processing

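Samples could not be paired across time points because each time point is 1 library. The class tests were paired within libraries, with the library as the block. Without the library block, edgeR called 391 genes against CD4 T cells, 731 against CD8 T cells and 0 between cells with and without Cd163l1, where 273 genes had an unadjusted p under 0.05 and DESeq2, with the block, called 61. The counts with the block were 1376, 1951 and 72. Leaving out 1 library gave 828 to 1376 genes against CD4 T cells, with 892 without day 14 and 828 without day 28, 1302 to 1845 against CD8 T cells, and 21 to 189 for the Cd163l1 split, with 189 without day 3, 45 without day 7, 22 without day 14 and 21 without day 28. The split called 451 genes with no filter on low counts and 25 after thinning. Nkg7 against CD4 T cells turned to -1.23 (log2) without sham and day 3, and was at -0.94 without NK-marked cells. Klre1 against CD8 T cells turned to -2.78 without NK-marked cells and to -2.28 without sham and day 3, and Cd74 in the split to -0.87 after thinning. Cd69, which did not pass, also changed sign, to 0.031 against CD4 and 0.0081 against CD8 T cells without NK-marked cells. Ratios to sham that turned without these cells are given above. With NK-marked cells left out of every class, 14 listed or named genes gained a call against CD4 T cells and 6 lost one. Against CD8 T cells 11 gained a call and 3 lost one. These counts include genes that a single class brought past the filter, so they are a description. As a share of T cells, gamma delta T cells were 5.33%, 5.48%, 9.61%, 28.0% and 32.9%, and with the floor of 4624 UMIs, added after the data were seen, 5.51%, 5.91%, 9.61%, 29.3% and 17.1%. With the floor of 4624 UMIs the shares of all barcodes were 3.61% at day 14 and 0.966% at day 28, and Il17a was present in 69.3% and 58.3% of the cells. At day 28 the share was 4.93% with predicted doublets removed and 4.03% with at least 2 Trdc UMIs. Leaving out cells with Ncr1 or Klrb1c, an alternative added after the data were seen, gave a day 3 share of 0.387%, with Il17a in 54.8% of cells at 943 CPM. With Trac, Cd8a and Il1rl1 barred as well, Il17a stood at 767 CPM in sham, 1201 at day 3 (55.6% of cells) and 900.4 at day 7. The mean of per-cell values gave 608 CPM at day 3 and 955 at day 7, and thinning gave 623 and 933 CPM, with Il17a in 35.1%, 47.2% and 44.2% of cells at days 7, 14 and 28. The causes of these differences were not tested. Depth limits the sham values most, since they rest on 22 cells and 106177 UMIs, and variable regions of the receptor are under-detected in every library.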

Other observations

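A neuropeptide gene was found mainly in the gamma delta T cells of day 14, and a gene of its receptor in every library. Calca, the gene of the neuropeptide CGRP, had 379 UMIs in gamma delta against 18 in CD4 and 24 in CD8 T cells, ratios of 18.8 (95% counting interval 11.7 to 32.0) and 39.9 (26.4 to 63.0), and passed the filter on low counts through gamma delta T cells alone. Without NK-marked cells it was at 0, 32.9, 19.8, 160.4 and 38.0 CPM from sham to day 28, so day 14 was the highest. Ramp1, a subunit of the CGRP receptor, was 1.41 and 2.71 higher on the log2 scale, at 226, 137, 292, 372 and 531 CPM from sham to day 28, and at 247 CPM at day 3 without cells holding Ncr1 or Klrb1c. Both calls of Ramp1 were made by edgeR's quasi-likelihood test with Benjamini-Hochberg adjustment. From sham to day 28, 0, 1, 5, 3 and 4 gamma delta T cells held over 3 times the median UMIs of the class in their library, and those at day 7 held 18.3% of its UMIs. Without them Cd74 was at 28.2, 202, 3261, 122 and 157 CPM, against 28.2, 195, 3873, 484 and 430.1 CPM with them, and at 313 CPM at day 3 when the cells with Ncr1 or Klrb1c were left out instead.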
